A study of Mus musculus with 22 samples.

Results

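Interferon response genes and interferon regulatory factor (IRF) genes were described in whole testes of mice that lack MLX, a bHLHLZ transcription factor of the extended MYC network. The group was taken from the gene symbols of the testes RNA-seq count table by a fixed pattern of names that covers interferon receptor subunits, STAT genes, the IRFs and their binding proteins, the GBP and IRG GTPases, and the IFI, IFIT, IFITM, ISG and OAS families with Mx, Rsad2, Usp18, Bst2 and Rtp4. The pattern used names and no measured value, and it found 75 of the 17931 gene symbols in the table. RNA was sequenced from 3 WT and 3 MLX KO testes at 7 months of age, and the labels number them as paired replicates 1, 2 and 3, which the study describes as littermates. WT males were proven breeders. The Mlx allele was targeted in 129S4 embryonic stem cells, and chimeras were bred to Meox2-Cre mice, which removed the exons for the DNA-binding and dimerization domain in the whole animal, before the Cre allele was bred out. Which of the study's targeted clones gave rise to these mice is not given in the sources used here. The ChIP-seq libraries of the series were not analysed here.

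Mlx itself had 128, 96 and 98 counts in WT libraries against 94, 109 and 102 in libraries labelled KO (replicates 1, 2 and 3, an order kept throughout). The groups overlapped, and the log2 fold change (LFC, KO over WT) was -0.18 ± 0.14 (SE, n = 3 per genotype; edgeR's quasi-likelihood test, Benjamini-Hochberg adjusted p = 0.326). The KO allele keeps other Mlx exons, which can still yield counts in a table of 1 number per gene. Whether they did was not tested, so these counts do not check the genotype. Every direction given here compares testes by their KO and WT labels. The paper reports no MLX staining in KO testes and loss of MLX protein in KO tubule cells. The libraries held 16674678 to 19742726 counts, and of all genes, 3634 of 14640 tested genes were higher in KO and 3015 were lower.

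Interferons are secreted proteins that bind receptor pairs on the cell surface, IFNAR1 with IFNAR2 for type I interferons and IFNGR1 with IFNGR2 for interferon gamma. The receptors activate JAK kinases, which phosphorylate STAT proteins. STAT dimers bind a promoter element called GAS, whereas a complex that holds STAT2 and IRF9 binds the interferon-stimulated response element (ISRE), as other IRFs can. The genes induced in this way encode GTPases, RNA sensors, nucleases and membrane proteins that restrict viruses and intracellular microbes. In the testis, macrophages, Leydig cells and Sertoli cells are known to respond to interferon, while the germ cells that make up most of the tissue lie behind the blood-testis barrier.

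Most members with enough counts to be tested were higher in MLX KO testes. Of the 75 members, 56 passed the filter on low counts; 32 of these (57.1%) were higher in KO at an adjusted p below 0.05, against 24.8% of all genes tested. Irgc1 and Isg20l2 were lower (3.57% of the 56, against 20.6% of all genes tested), and 22 did not pass the threshold in either direction. The median LFC of the 56 was 0.81, against 0.03 over all genes tested, and 49 of 56 LFCs (87.5%) were above 0, against 52.7% of all genes. Of the 32 higher members, 31 were higher in 3 of 3 littermate pairs and 30 had every KO library above every WT library. These members were called from the same libraries, so such counts follow largely from the calls and are no separate evidence of consistency. The matching shares of all genes called higher are not given here. Among all 56, 31 (55.4%) had the KO libraries entirely above the WT libraries in CPM, the counts scaled to library size and edgeR's TMM factors, against 30.3% of all genes tested. With the scaling left at library size alone, which moved the median of all genes to 0.16, 36 members were higher (36.5% of all genes). The median LFC of members was then 0.95. With the littermate pair as a block, 36 members were higher in edgeR (25.5% of all genes) and 21 in DESeq2 (14.5% of all genes).

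**Figure D1:**
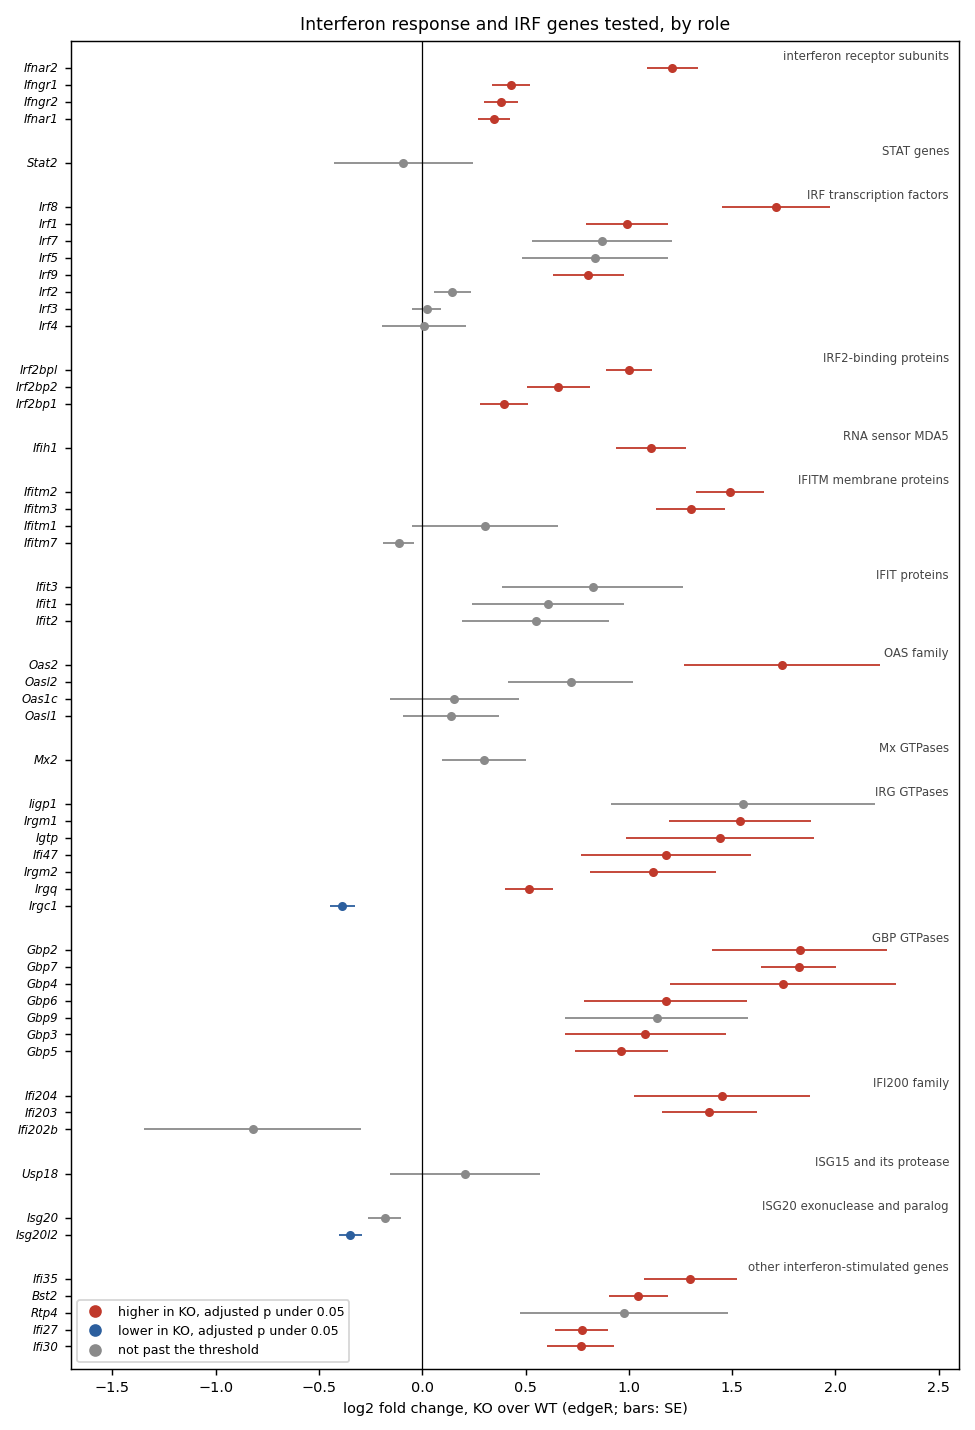
LFC of 54 of the 56 tested interferon response and IRF genes (x axis, log2 fold change of KO over WT) grouped by role, with points as edgeR estimates and bars as SE (n = 3 per genotype). Red points passed an adjusted p of 0.05 as higher in KO (31 of the 54), blue as lower (Irgc1 and Isg20l2), and grey did not pass (21).

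Not every member could be tested. The filter asks for about 10 counts in 3 libraries, so a gene could enter through the KO libraries alone. Of the 56 tested members, 13 reached the minimum in every KO library but not in every WT library, and 5 of these were higher (Gbp4, Gbp6, Ifi47, Ifi204 and Oas2), whereas 41 reached it in every library and 27 of those were higher. The shares of all genes called higher within these subsets are not given here, so neither count has a background to read it against. The 19 members that were not tested were Gbp2b, Gbp8, Gbp10, Gbp11, Ifi27l2a, Ifi44, Ifi44l, Ifi205, Ifitm5, Ifitm10, Isg15, Oas1a, Oas1b, Oas1e, Oas1f, Oas1g, Oas1h, Oas3 and Rsad2. None of them exceeded 21 counts in any library, and 9 had at most 3 counts in every library. Fitted with no filter, Rsad2, which encodes the antiviral enzyme viperin (3, 3 and 6 counts in WT against 21, 9 and 11 in KO), was the only one of the 19 to pass the threshold (LFC 1.63, adjusted p = 0.0213).

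The interferons themselves were at the detection floor. Of 21 ligand genes looked up, 10 were in the table, and none had more than 3 counts in any library. Ifng, which encodes interferon gamma, had 1 count in KO1 and 0 in the other libraries. Ifnk and Ifnab reached 3 counts, Ifnl3 reached 2, and Ifne, Ifnl2, Ifnz, Ifna2, Ifna6 and Ifna16 reached 1. The other 11 ligands, with Ifnb1 among them, are not analysed here. Differences in ligand mRNA were not detectable at this depth.

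All 4 receptor subunits were higher in KO, Ifnar2 by the most, where 24.8% of all genes tested were higher. Ifnar2 had 91, 84 and 112 counts in WT against 235, 229 and 251 in KO. The lowest KO library held more Ifnar2 counts than the highest WT library, and the LFC was 1.21 ± 0.12 (SE; edgeR, adjusted p = 3.42e-05). The other 3 subunits changed less. Ifnar1 had 559, 383 and 473 counts in WT against 637, 618 and 672 in KO (LFC 0.35 ± 0.08, adjusted p = 0.0044). Ifngr1 had 187, 167 and 184 counts in WT against 281, 250 and 249 in KO (LFC 0.43 ± 0.09, adjusted p = 0.00319), and Ifngr2 had 596, 398 and 532 in WT and 709, 697 and 718 in KO (LFC 0.38 ± 0.08, adjusted p = 0.00307). In CPM, the KO libraries lay above the WT libraries for all 4, as they did for 30.3% of all genes tested. Ifngr1 missed the threshold in DESeq2 with the littermate pair as a block (adjusted p = 0.0801, the highest of 14 other settings, of which the lowest gave 0.000783).

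In exon-length terms (RPKM, TMM-scaled CPM divided by the exon length in kilobases), Ifngr2 had the highest level of the subunits, at 7.67 RPKM in WT and 10.0 in KO, and Ifnar2 the lowest, at 1.65 and 3.81. The promoter of Ifnar2 is shown because Ifnar2 was the receptor subunit with the largest change and its promoter holds a GAS match, TTCNNNGAA, the only match of GAS or ISRE in the 250 bases before its start. Here and below the sequence is RefSeq's, in lower case 5′ to 3′ along the gene's strand on GRCm38.p6 (mm10), with each GAS match and each ISRE match (GAAA, any 2 bases and GAAA again, on either strand) in capitals. The window of Ifnar2 lies at chr16:91372539-91372607 on the plus strand.
Ifnar2: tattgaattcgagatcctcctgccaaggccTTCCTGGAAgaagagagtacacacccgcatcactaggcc

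Stat2, a transcription factor of type I interferon signalling, did not separate the genotypes. Stat2 had 126, 307 and 330 counts in WT against 189, 224 and 369 in KO, with the lowest value of each genotype in pair 1 (LFC -0.09 ± 0.34, adjusted p = 0.843). Its sign turned to above 0 with library size alone and without WT2, WT3 or KO1, always short of the threshold.

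Among the IRF genes described here, Irf1, Irf8 and Irf9 were higher in KO, none was lower, and 5 did not pass. Of all genes tested, 24.8% were higher and 20.6% lower. Irf8 encodes a factor needed for macrophage and dendritic cell development. It had 108, 76 and 87 counts in WT against 193, 430 and 324 in KO. The KO libraries did not overlap the WT libraries, KO1 was the lowest of them, and the LFC was 1.71 ± 0.26 (SE; edgeR, adjusted p = 0.000436). Irf1, an early interferon gamma target that activates GBP and antigen presentation genes, had 51, 50 and 38 counts in WT against 125, 80 and 94 in KO (LFC 0.99 ± 0.20, adjusted p = 0.00222). Irf9, the DNA-binding partner of STAT2, had 54, 41 and 62 counts in WT against 113, 81 and 101 in KO (LFC 0.80 ± 0.17, adjusted p = 0.0032). For both Irf1 and Irf9 every KO library was above every WT library, as in 30.3% of all genes tested.

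The other IRF genes gave smaller or more variable differences. Irf7, the inducible amplifier of type I interferon production, had 19, 10 and 28 counts in WT against 52, 33 and 27 in KO. Its groups overlapped through WT3 and KO3, and the LFC of 0.87 did not pass (adjusted p = 0.0564, and 0.0362 in edgeR with the littermate block; range over 14 other settings 0.0216 to 0.209). Irf5, which acts downstream of Toll-like receptors, had 9, 11 and 24 counts in WT against 35, 26 and 24 in KO (LFC 0.84, adjusted p = 0.0745). WT3 held the highest WT value of both genes, and without it both passed (LFC 1.25 and 1.37, adjusted p = 0.0216 and 0.012). Irf7 also passed without KO3 (adjusted p = 0.0386). Irf2, Irf3 and Irf4 had LFCs nearer to 0. Irf2, a competitor of IRF1, had an LFC of 0.15 (adjusted p = 0.212), Irf3, the constitutive factor activated by nucleic acid sensors, 0.02 (adjusted p = 0.814), and Irf4 0.01 (adjusted p = 0.973). Per exon length Irf3 was the highest of these IRF genes, at 9.72 RPKM in WT and 9.89 in KO.

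**Figure D2:**
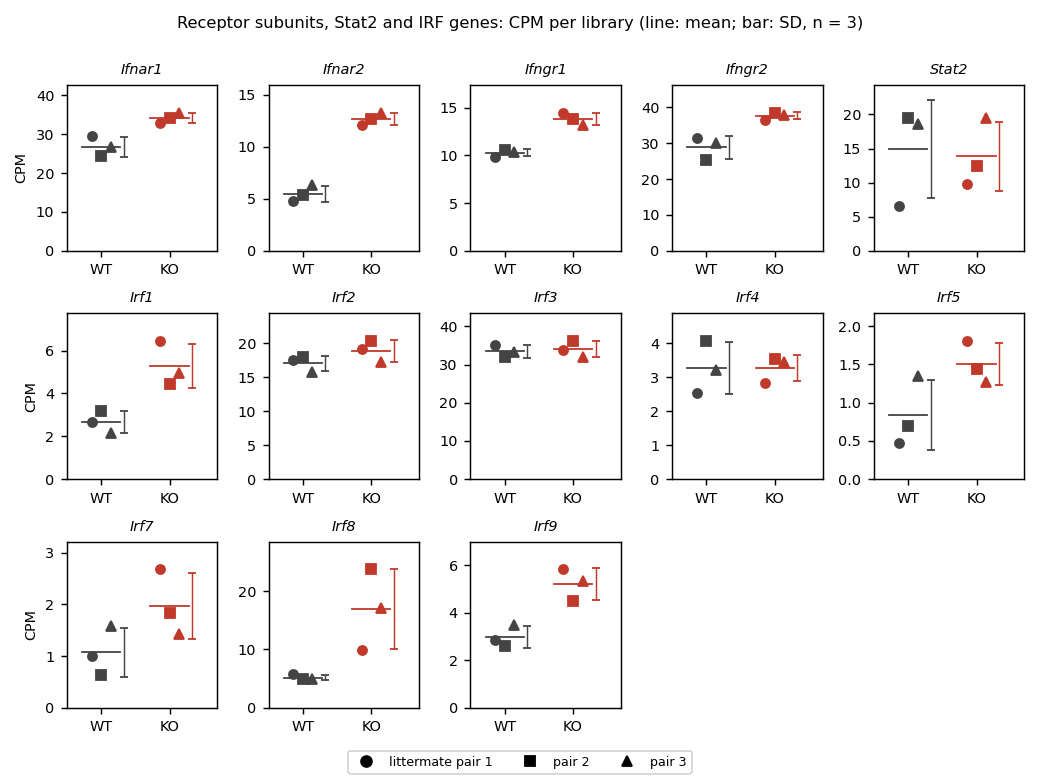
CPM per library (y axis, from 0 or the lower end of the SD bar) of the 4 receptor subunits, Stat2 and 8 IRF genes in WT (grey) and KO (red), with a marker shape for each littermate pair, lines at the mean and bars as SD (n = 3). The receptor subunits, Irf1, Irf8 and Irf9 show KO libraries entirely above WT libraries, and Stat2 is low in pair 1 of both genotypes.

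The promoters of Irf1 and Irf8 are shown because these transcription factor genes were higher in KO and carry GAS matches but no ISRE match before their starts. The Irf1 window lies at chr11:53769894-53769962 and the Irf8 window, which holds 2 GAS matches, at chr8:120736175-120736243, both on the plus strand.
Irf1: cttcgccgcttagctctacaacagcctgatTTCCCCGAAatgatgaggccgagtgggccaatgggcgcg
Irf8: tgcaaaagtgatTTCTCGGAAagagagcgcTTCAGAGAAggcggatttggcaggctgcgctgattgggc

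The 3 genes for IRF2-binding proteins, which are nuclear corepressors and not interferon-induced effectors, were all higher in KO. Of all genes tested, 24.8% were higher. Irf2bpl had 160, 117 and 140 counts in WT against 279, 321 and 294 in KO, with no overlap (LFC 1.00 ± 0.11 SE; edgeR, adjusted p = 5.49e-05). Irf2bp2 had 118, 115 and 130 counts in WT against 165, 228 and 223 in KO (LFC 0.66 ± 0.15, adjusted p = 0.00504). Irf2bp1 had 160, 117 and 142 counts in WT against 179, 205 and 206 in KO (LFC 0.39 ± 0.12, adjusted p = 0.0171). The call for Irf2bp1 was lost in DESeq2 with and without the block and when WT2, KO2 or KO3 was left out. For these 3 genes KO1 was never the highest KO library.

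The GBP and IRG families are GTPases that assemble on vacuoles holding microbes and are among the strongest interferon gamma targets. Of 7 tested GBP genes 6 were higher in KO, and of 7 tested IRG genes 5 were higher and 1 was lower, where 24.8% of all genes tested were higher and 20.6% lower. Another 4 of the 11 GBP genes were not tested. Gbp4, Gbp6, Gbp9 and Ifi47 reached the filter minimum in every KO library but not in every WT library. Such genes could enter through the KO libraries alone, which limits what these counts show. Gbp7 had 32, 26 and 30 counts in WT against 136, 92 and 108 in KO. Its KO libraries lay far above a narrow WT range, and the LFC was 1.82 ± 0.18 (SE; edgeR, adjusted p = 3.21e-05). Gbp2 had 16, 14 and 31 counts in WT against 135, 53 and 47 in KO (LFC 1.83 ± 0.42, adjusted p = 0.00492), and Gbp5 had 18, 18 and 19 in WT and 42, 34 and 40 in KO (LFC 0.96 ± 0.22, adjusted p = 0.00497). Gbp2 thus had a KO1 count above those of the other 2 KO libraries, while the 3 KO libraries of Gbp5 were close. Gbp4 had 6, 6 and 15 counts in WT against 59, 12 and 28 in KO, with KO2 below WT3 (LFC 1.75 ± 0.55, adjusted p = 0.0227). Gbp3 and Gbp6 were higher with LFCs of 1.08 (adjusted p = 0.041) and 1.18 (adjusted p = 0.0305), and Gbp9, at 1.13, did not pass (adjusted p = 0.0555). Of the 50-base stretches of Gbp6, 70.7% also occur in other genes, Gbp10 among them, so its counts are uncertain, and exons of Gbp4, Gbp8 and Gbp9 overlap on the same strand.

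Among the IRG genes, Irgm1 and Irgm2 encode regulators of the family and Igtp and Ifi47 encode effectors. Irgm1 had 22, 12 and 35 counts in WT against 107, 53 and 56 in KO (LFC 1.54 ± 0.34 SE; edgeR, adjusted p = 0.00406), and Irgm2 had 17, 26 and 33 in WT and 84, 50 and 45 in KO (LFC 1.12 ± 0.31, adjusted p = 0.0116). Igtp had 13, 16 and 23 counts in WT against 94, 32 and 28 in KO (LFC 1.44 ± 0.46, adjusted p = 0.0231). In these 3 genes the KO libraries lay above the WT libraries (30.3% of all genes tested), with KO1 well above KO2 and KO3. Ifi47 followed with an LFC of 1.18 (adjusted p = 0.0354). Irgq, a divergent IRG-like gene, had 145, 135 and 134 counts in WT against 195, 222 and 220 in KO (LFC 0.52 ± 0.12, adjusted p = 0.00397), and it was the only IRG gene tested in which KO1 was not the highest KO library.

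Irgc1 went the other way from a far higher level. It is a family member known mainly from testis, and it had 22060, 18515 and 21514 counts in WT against 19149, 15979 and 16010 in KO. In CPM every KO library was below every WT library (LFC -0.39 ± 0.06 SE; edgeR, adjusted p = 0.00052), and per exon length it fell from 422 to 323 RPKM. Isg20l2, which encodes a nuclear exonuclease of ribosomal RNA processing, was the other member lower in KO, with 3237, 2605 and 2862 counts in WT against 2685, 2214 and 2456 in KO (LFC -0.35 ± 0.05, adjusted p = 0.000508). Its paralog Isg20 had an LFC of -0.18 (adjusted p = 0.0839, range over 14 other settings 0.014 to 0.665). Beside this fall, all 10 markers of round and elongating spermatids tested were lower in KO, and their summed CPM was 19003 to 19840 in WT and 11177 to 13552 in KO. In bulk tissue fewer cells of a type and less RNA per cell cannot be told apart, and the part of the spermatid transcripts in these 2 results was not tested.

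The excess of GBP and IRG transcripts was uneven across the KO testes. KO1 was the highest KO library for 13 of the 14 GBP and IRG genes tested, whereas it was the highest for 37.3% of all genes tested. The ratio of the CPM in KO1 to the mean of KO2 and KO3 had a median of 1.84 over the 14 genes (range 0.841 to 5.55), against 0.992 over all genes. The median difference within a pair, on the log2 CPM scale, was 2.15 in pair 1, 0.72 in pair 2 and 0.46 in pair 3. WT3 was in turn the highest WT library for 10 of the 14. KO1 also stood apart beyond these genes. Over the tested genes, the chi-square of the counts per degree of freedom was 8.26 between KO1 and KO2 and 8.25 between KO1 and KO3. It was 2.73 between KO2 and KO3, and 2.99 to 4.27 between WT libraries. Without KO1, 6 of the 14 were higher in KO (Gbp2, Gbp5, Gbp7, Irgm1, Irgm2 and Irgq), against 27.0% of all genes in that fit, and the median LFC over the 14 fell from 1.18 to 0.79. With the littermate block, edgeR called 7 GBP and 6 IRG genes higher (25.5% of all genes), and DESeq2 called 3 and 1 (14.5% of all genes). Irgq, Irgm2 and Gbp5, which kept their calls when any 1 library was left out, were among those lost in DESeq2 with the block (adjusted p = 0.0511, 0.0558 and 0.136).

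Iigp1 showed the most extreme dependence on KO1 and was singled out after its values were seen. This IRG effector gene had 21, 14 and 37 counts in WT against 171, 24 and 35 in KO. KO2 and KO3 lay within the WT range, so the genotype difference rested on KO1 (LFC 1.55 ± 0.64 SE; edgeR, adjusted p = 0.0679). Without KO1 the LFC was 0.22 (adjusted p = 0.641), without KO2 it was 1.97 and without KO3 1.90, and the gene then passed (adjusted p = 0.0184 and 0.0339). With the littermate block it passed in edgeR (adjusted p = 0.0166, the lowest of 14 other settings) and not in DESeq2 (adjusted p = 0.388). For Igtp, the LFC without KO1 was 0.71 (adjusted p = 0.083). Gbp3, Gbp4, Gbp6 and Ifi47 also lost their calls without KO1, with LFCs of 0.75, 1.06, 0.80 and 0.76 and adjusted p of 0.139, 0.0943, 0.116 and 0.138. Gbp2 fell to an LFC of 1.22 without it and still passed (adjusted p = 0.00696), and Gbp7 kept an LFC of 1.69. Gbp3 had an LFC of 1.72 without WT3, and Gbp9 passed without KO2 (adjusted p = 0.03). Leaving out WT1 also ended the calls of Gbp3, Gbp4, Gbp6, Ifi47 and Igtp, leaving out WT2 those of Gbp3, Gbp4, Ifi47 and Igtp, and leaving out KO2 that of Gbp3.

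**Figure D3:**
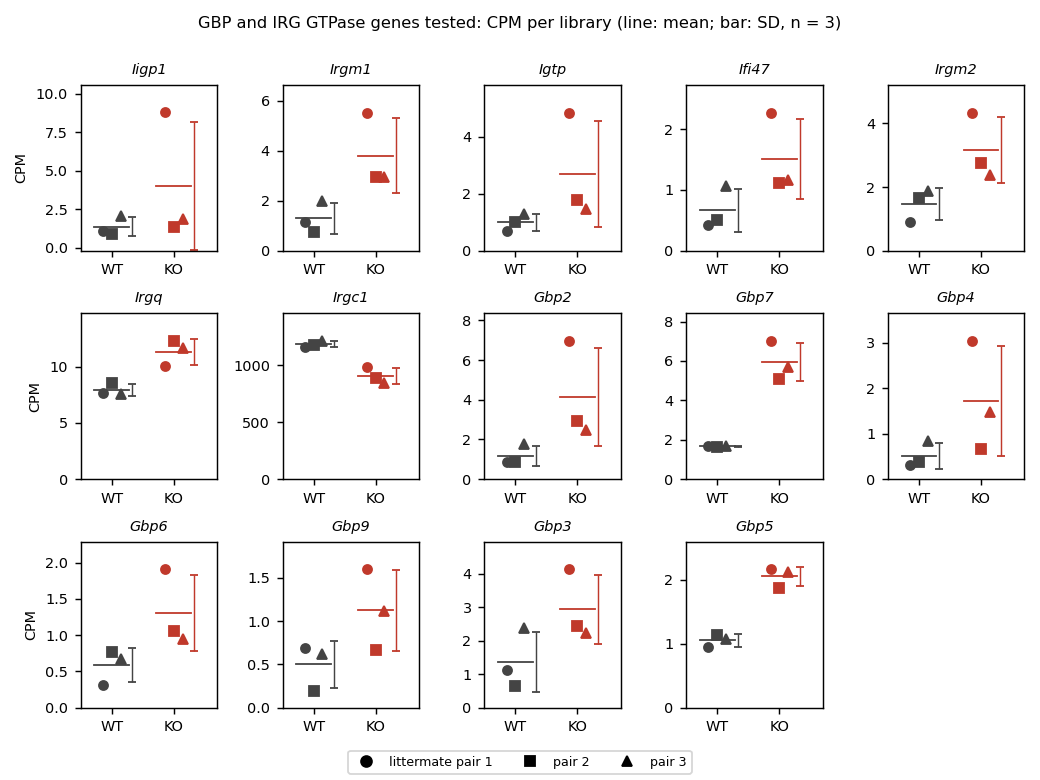
CPM per library (y axis, from 0 or the lower end of the SD bar) of the 14 tested GBP and IRG GTPase genes in WT (grey) and KO (red), with a marker shape for each littermate pair, lines at the mean and bars as SD (n = 3). The circle of pair 1 is the highest KO value in 13 genes, with Irgq as the exception, and Iigp1 in KO2 and KO3 lies within its WT range.

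Across all 56 tested members, KO1 exceeded the mean of KO2 and KO3 by more than 1.5 times in 14 (25.0%), compared with 1.62% of all genes tested. Receptor subunits, Irf8, Ifitm2, Ifitm3, Ifih1 and Irf2bpl were not among them. The within-pair differences of all tested members had medians of 1.02, 0.69 and 0.42 in pairs 1, 2 and 3. Of the 32 members higher in KO, 26 were also higher without KO1. The 6 that were not were Gbp3, Gbp4, Gbp6, Ifi47, Igtp and Ifi204. The 32 were called with KO1 included, so the 26 follow in part from those calls. In the fit without KO1, 27 of 56 members tested were higher, against 27.0% of all genes. The call of Ifi204 was also lost without WT2 or WT3.

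The promoters of 5 GTPase genes are shown because their transcripts were higher in KO and each holds an ISRE match in the 250 bases before its start. The Gbp2 window is at chr3:142620574-142620643 and the Gbp7 window at chr3:142530253-142530322, both on the plus strand of the chromosome 3 cluster. The Irgm1 window is at chr11:48871421-48871474 on the minus strand and holds 2 overlapping ISRE matches. The Igtp window at chr11:58199492-58199555 and the Irgm2 window at chr11:58214883-58214952, both on the plus strand, carry a GAS match followed by an ISRE match in closely similar sequence; exons of these neighbours overlap on the same strand, and reads there cannot be assigned to 1 of them with certainty.
Gbp2: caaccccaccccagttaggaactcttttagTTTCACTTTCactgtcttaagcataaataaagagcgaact
Gbp7: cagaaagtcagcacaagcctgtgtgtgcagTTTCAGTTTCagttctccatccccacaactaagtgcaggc
Irgm1: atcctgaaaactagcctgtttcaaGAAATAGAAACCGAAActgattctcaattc
Igtp: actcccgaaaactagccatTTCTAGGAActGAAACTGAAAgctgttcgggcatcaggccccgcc
Irgm2: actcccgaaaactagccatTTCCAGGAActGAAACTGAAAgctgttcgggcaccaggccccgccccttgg

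The RNA sensor gene Ifih1 was higher in KO, as were 2 of 4 tested IFITM genes, against 24.8% of all genes tested. Ifih1, which encodes the cytoplasmic RNA sensor MDA5, had 35, 31 and 33 counts in WT against 81, 77 and 72 in KO (LFC 1.11 ± 0.17 SE; edgeR, adjusted p = 0.000424). Ifitm2 and Ifitm3 encode membrane proteins that block virus entry. Ifitm2 had 71, 60 and 91 counts in WT against 188, 235 and 247 in KO (LFC 1.49 ± 0.16, adjusted p = 5.8e-05), and Ifitm3 had 54, 36 and 56 in WT and 128, 141 and 116 in KO (LFC 1.30 ± 0.17, adjusted p = 0.00015). None of these 3 genes had overlapping groups, and 30.3% of all genes tested had every KO library above every WT library. Of the 50-base stretches of Ifitm2, 48.5% also occur in other genes, chiefly Gm45717, which overlaps it on the same strand. Ifitm7, the most abundant family member per exon length (18.2 RPKM in WT and 16.8 in KO), did not pass (LFC -0.11, adjusted p = 0.233), nor did Ifitm1 (LFC 0.31, adjusted p = 0.507).

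Bst2, which encodes tetherin, had 58, 57 and 60 counts in WT against 144, 127 and 119 in KO (LFC 1.05 ± 0.14 SE; edgeR, adjusted p = 0.000216). Ifi35, an interferon-induced regulator of innate signalling, had 21, 28 and 36 counts in WT against 69, 75 and 82 in KO (LFC 1.30 ± 0.23, adjusted p = 0.000935). Ifi27 had 193, 162 and 229 counts in WT against 314, 389 and 366 in KO (LFC 0.77 ± 0.13, adjusted p = 0.000679). In all 3 genes the KO libraries stood above the WT libraries, as in 30.3% of all genes tested. Ifi30, which encodes a lysosomal thiol reductase of antigen processing, had an LFC of 0.77 (adjusted p = 0.00287), and Rtp4 one of 0.98 that did not pass (adjusted p = 0.135) except without WT3 (LFC 1.59, adjusted p = 0.0487). Ifi35 lies 356 kb from Mlx on chromosome 11, and the other 5 members on that chromosome lie 42864 to 52215 kb away. Ifi203 and Ifi204, of the DNA-sensor-related IFI200 family, were higher with LFCs of 1.39 ± 0.23 (adjusted p = 0.000697) and 1.45 ± 0.43 (adjusted p = 0.0166), and their close paralogs share part of their sequence. Ifi202b, the other family member tested, had 15, 20 and 6 counts in WT against 10, 3 and 12 in KO, and its LFC of -0.82 was the lowest of the 56 tested members but did not pass (adjusted p = 0.225). Its groups overlapped, and it was lower in 2 of 3 pairs. Ifi204 was not called in DESeq2 with the littermate block (adjusted p = 0.0776).

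Several genes usually counted among the core of the type I interferon response were low in these testes and did not pass. Ifit1, Ifit2 and Ifit3, which encode proteins that bind viral RNA, had LFCs of 0.61, 0.55 and 0.83 (adjusted p = 0.199, 0.228 and 0.147) from at most 24 counts in any library. Ifit3 passed without WT3, its highest WT library (LFC 1.48, adjusted p = 0.0293). Ifit1 had 6, 5 and 9 counts in WT against 12, 11 and 10 in KO. Its KO libraries stood above its WT libraries, yet at this depth the difference did not pass. Isg15, the ubiquitin-like modifier, had 4, 4 and 9 counts in WT against 16, 14 and 8 in KO and was not tested in the main fit. Over the 7 other edgeR and DESeq2 settings that fitted Isg15, its adjusted p ranged from 0.0408 to 0.408. The gene of the ISG15 protease, Usp18, had an LFC of 0.21 (adjusted p = 0.672). Mx2 had an LFC of 0.30 (adjusted p = 0.253).

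The OAS family makes or resembles the enzymes that activate RNase L, and 4 of its 11 genes had enough counts to be tested. Oas2 had 5, 1 and 8 counts in WT against 14, 15 and 22 in KO (LFC 1.74 ± 0.47 SE; edgeR, adjusted p = 0.0114). It passed the filter through the KO libraries alone, and such a gene had to be higher there. Its LFC was 2.35 without WT3, and its call was lost in DESeq2 with the block (adjusted p = 0.0734; lowest over its 13 other settings 0.00475). Oasl2 had 46, 47 and 57 counts in WT against 58, 68 and 140 in KO, high in KO3 and not in KO1 (LFC 0.72, adjusted p = 0.0746). It passed with the littermate block in edgeR (adjusted p = 0.0152) and without KO1 (adjusted p = 0.0112), within a range of 0.0112 to 0.425 over 14 other settings. Oasl1 and Oas1c had LFCs of 0.14 and 0.16 (adjusted p = 0.658 and 0.715).

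The share of promoters with a GAS match was highest among members higher in KO and lowest among members not tested. ISRE matches showed no such order, and no difference between these groups was tested. RefSeq promoter windows of 250 bases before and 50 after the start were given for 56 of the 75 members. An ISRE match was found in 24 of the 56 (42.9%), against 534 of the 14231 genes of the table with a window (3.75%), and a GAS match in 17 of 56 (30.4%), against 8.66%. Among members higher in KO, 12 of 26 held an ISRE match and 12 of 26 a GAS match. The other tested members held them in 5 and 4 of 17 windows, and the members not tested in 7 and 1 of 13. These families are named for interferon induction, so their share of ISRE matches is a description of the group and was not tested. CACGTG, the E-box that MLX and its partners can bind, was found in 1 of 56 windows, that of Ifi30, against 10.1% of the table's genes; a window without these letters says nothing about binding elsewhere.

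The windows of Bst2, which was higher in KO, and of Isg15 and Ifit1, which were low and not called, are shown because all 3 hold ISRE matches in the 250 bases before the start. The Bst2 window is at chr8:71537557-71537626 on the minus strand and holds a GAS match beside ISRE matches. The Isg15 window, with 3 overlapping ISRE matches, is at chr4:156200845-156200914 on the minus strand, and the Ifit1 window, with 2, is at chr19:34640774-34640843 on the plus strand.
Bst2: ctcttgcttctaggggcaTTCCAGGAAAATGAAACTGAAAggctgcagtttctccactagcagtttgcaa
Isg15: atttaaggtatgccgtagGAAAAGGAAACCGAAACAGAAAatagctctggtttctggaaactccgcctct
Ifit1: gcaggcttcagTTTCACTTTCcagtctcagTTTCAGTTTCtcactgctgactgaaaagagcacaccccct

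Levels per exon length differed widely among members. In WT testes 22 of the 75 members exceeded 1 RPKM, and in KO 29 did. The 5 members with the highest level in WT were Irgc1 (422 RPKM), Isg20l2 (57.3), Isg20 (25.5), Ifitm7 (18.2) and Irf3 (9.72), and none of these 5 was higher in KO. Ifngr2 (7.67 RPKM), Ifi27 (7.59) and Ifitm2 (6.46) came next, and all of them were higher in KO. Several members with an LFC above 1.5 were at low levels in WT, among them Gbp2 at 0.461, Gbp7 at 0.299 and Irgm1 at 0.224 RPKM.

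**Figure D4:**
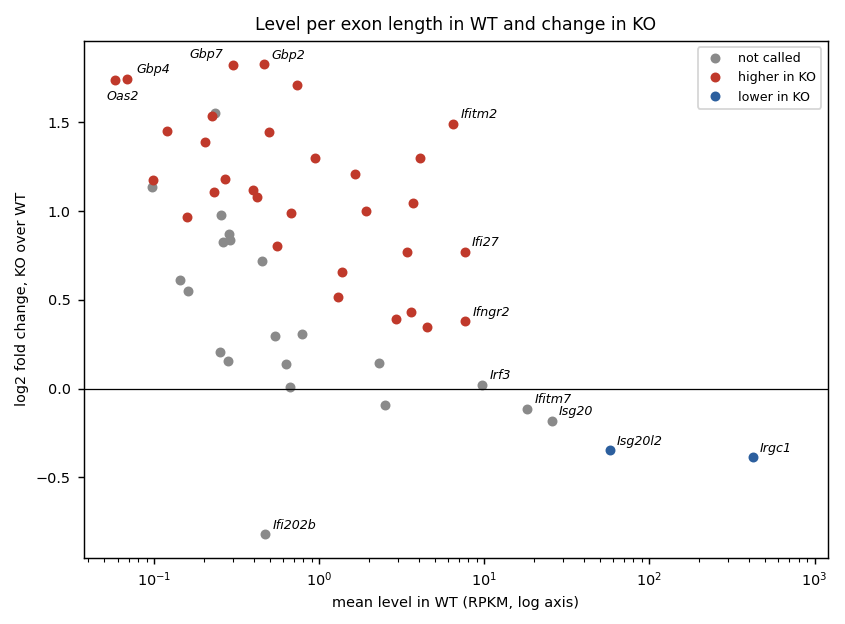
Mean level in WT (x axis, RPKM, log axis) and LFC (y axis, log2 fold change of KO over WT) of 54 of the 56 tested members, coloured by call. The 5 members with the highest WT levels, from Irf3 at 9.72 to Irgc1 at 422 RPKM, have LFCs between -0.39 and 0.02, and the LFCs above 0.5 belong to members at lower levels.

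Genes of the pathway outside the name pattern were taken from a list of 95, of which 84 were in the table and 67 were tested. Of the 67, 40 were higher in KO, 3 were lower and 24 did not pass, where 24.8% of all genes tested were higher and 20.6% lower. Among receptor-proximal genes, 5 of 10 were higher and 1, Pias1, was lower (LFC -0.15). The kinase genes Jak1 and Jak2 had LFCs of 0.62 and 0.70 (edgeR, adjusted p = 9.98e-05 and 0.00077), and Socs3, a feedback inhibitor of cytokine signalling, rose from 15, 14 and 22 counts in WT to 73, 67 and 79 in KO (LFC 1.99 ± 0.22 SE, adjusted p = 5.8e-05). Tyk2 and Socs1 did not pass (LFC -0.03 and 0.14). Among nucleic acid sensors and their adaptors 9 of 16 were higher and none was lower. Ddx58, which encodes RIG-I, had an LFC of 0.73 (adjusted p = 0.00081), Mavs, its adaptor, 0.65 (adjusted p = 0.000491), and Tmem173, which encodes STING, 1.04 (adjusted p = 0.00354), while Dhx58 did not pass (-0.03).

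Among 41 other interferon-induced genes tested, 26 were higher and 2 were lower, against 24.8% and 20.6% of all genes tested. Psmb8 and Tap1, of the immunoproteasome and the peptide transporter, had 13, 9 and 12 and 21, 24 and 22 counts in WT, and 86, 46 and 41 and 113, 54 and 54 in KO (LFC 2.23 ± 0.33 and 1.60 ± 0.31 SE; edgeR, adjusted p = 0.000363 and 0.00172). B2m, the light chain of MHC class I, had 548, 451 and 639 counts in WT against 2152, 1090 and 1137 in KO (LFC 1.31 ± 0.21, adjusted p = 0.000568). In these 3 antigen presentation genes KO1 was again the highest library. Nlrc5, the activator of MHC class I genes, was lower (LFC -0.70 ± 0.12, adjusted p = 0.000857), as was Slfn8 (LFC -1.41, adjusted p = 0.0216). Ciita, the activator of MHC class II genes, had 6, 2 and 4 counts in WT against 53, 11 and 9 in KO and was not tested.

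Markers of several cell types also differed between the genotypes, where 24.8% of all genes tested were higher in KO and 20.6% lower. Of 12 macrophage markers tested, 11 were higher in KO, for example Lyz2 (LFC 1.79 ± 0.08 SE; edgeR, adjusted p = 2.35e-07) and Csf1r (LFC 1.28 ± 0.11, adjusted p = 1.19e-05), and 1, Aif1, was lower. The summed CPM of the 12 was 477 to 490 in WT and 519 to 568 in KO. Aif1 made up most of that sum, and without it, a choice made after its values were seen, the other 11 summed to 104 to 111 CPM in WT and to 244, 247 and 236 in KO1, KO2 and KO3. All 7 Leydig cell markers (840 to 866 CPM in WT, 1822 to 2388 in KO) and all 7 Sertoli cell markers tested (888 to 935 in WT, 1361 to 1649 in KO) were higher, as were 2 of 7 endothelial markers (22.0 to 26.7 CPM in WT, 36.0 to 39.5 in KO). Of 5 peritubular myoid markers 3 were higher and 1 was lower (303 to 359 CPM in WT, 293 to 314 in KO), and of 8 spermatocyte markers 6 were lower (1681 to 1731 in WT, 1475 to 1556 in KO). KO1, the library with the highest GBP and IRG levels, had the lowest KO sum of the Leydig, Sertoli and endothelial lists. It had the highest KO sum of the myoid, spermatocyte and spermatid lists. KO1 also had the highest KO sum of the full macrophage list with Aif1 (568 CPM, against 537 in KO2 and 519 in KO3). The part of each of these cell types in the interferon gene results was not tested.

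Lymphocyte, NK cell, dendritic cell and neutrophil markers gave no call. None of the 4 T cell markers tested of 8 passed (summed CPM of the 8, 4.77 to 7.16 in WT and 5.31 to 9.96 in KO), and KO1, the library with the highest GBP and IRG levels, had the highest sum. The sums of KO2 and KO3, 5.31 and 6.72 CPM, lay within the WT range. Cd8a, singled out of the 8 after its values were seen, had 28 counts in KO1, 2 and 4 in KO2 and KO3, and 4, 2 and 5 in WT. The other T cell markers are not given by gene here, so Cd8a does not stand for the list. The 4 T cell markers tested had a median LFC of 0.32. Neither of the 2 B cell markers tested passed (2.90 to 4.68 CPM in WT, 3.66 to 4.82 in KO). No NK cell or neutrophil marker had enough counts to be tested, with at most 10 and 6 counts in any library (0.445 to 1.13 and 0 to 0.282 CPM in WT, 0.940 to 1.24 and 0.155 to 0.794 in KO). Ncr1 and Prf1 of the NK list had at most 1 count. None of the 3 dendritic cell markers tested passed (18.6 to 20.2 CPM in WT, 18.6 to 19.0 in KO). The part of T cells in the KO1 values was not tested.

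**Figure D5:**
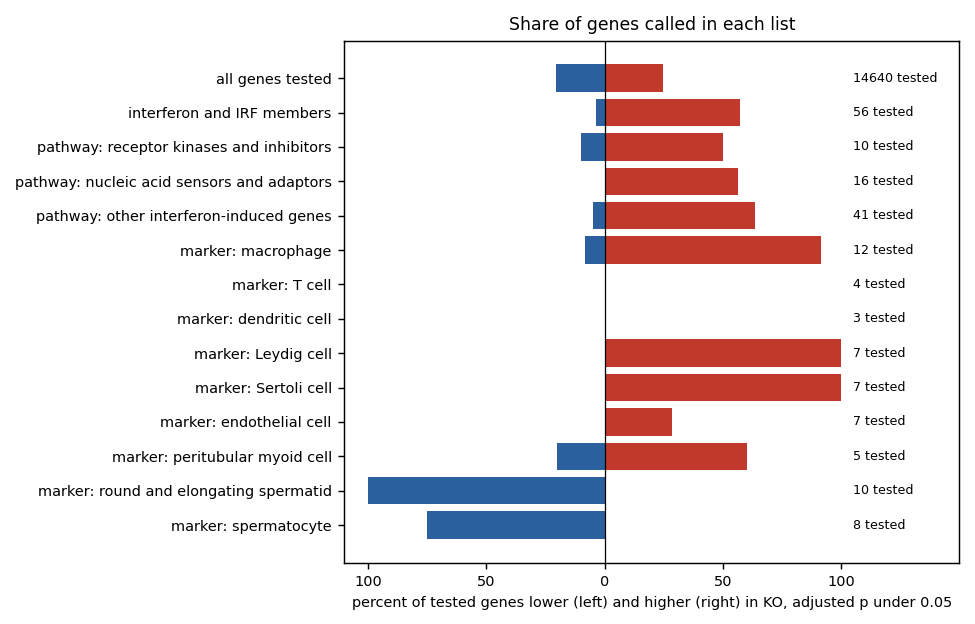
Percent of tested genes that were lower (blue, to the left) or higher (red, to the right) in KO at an adjusted p below 0.05, for all genes, the 56 interferon response and IRF members, the pathway lists and the cell type marker lists with at least 3 tested genes. The members (57.1% higher) sit above all genes (24.8% higher) beside lists of macrophage, Leydig and Sertoli cell markers that were almost wholly higher and spermatid markers that were all lower.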

How the data were processed

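RNA-seq was done on whole testes of 3 WT and 3 MLX KO mice. Per the labels and methods, the authors extracted RNA with Trizol, sequenced paired 50-base reads, and aligned them with TopHat to mm10. The counting tool and annotation are not given in the sources used here. The authors deposited raw read counts per gene symbol (17933 rows, of which 2 repeated another row). The counts were tested with edgeR 4.0.16 (R 4.3.3): filterByExpr by genotype, TMM scaling, glmQLFit and glmQLFTest without a block, Benjamini-Hochberg adjustment over 14640 genes and a threshold of 0.05. Columns of the authors' own comparison (mean, LFC, its error, test statistic and p) were not used. RPKM used TMM-scaled libraries and the exon length of each gene in a mouse annotation of the same build. The fit was tested on simulated counts.

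Same-numbered WT and KO libraries are littermates and were treated as paired in an alternative. Their deviations from the genotype means correlated at 0.145, 0.0363 and 0.121 (other WT and KO pairings, at most 0.0330). No replicates were duplicates. Alternatives were DESeq2 1.42.0 with and without the pair, other scaling, other filters and leaving out each library.

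Named were the receptor, STAT and IRF genes and ligands, per role the 3 tested members with the smallest adjusted p and the highest level per length, the 10 largest changes, each lower member and each untested member. Some members are counted in the totals but not reported here by name. Other genes were named after their values were seen. The members and lists were chosen with earlier results of these data known. A count of 3 or fewer was taken as the detection floor, which covers counting error only.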

Additional observations from a re-analysis of the deposited data

How the results depend on the processing

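The number of interferon response and IRF members higher in KO was 32 of 56 tested. It lay between 26 and 38 when 1 library was left out (lowest without WT2, highest without WT3, each with 60 members tested). Over all genes, 2978 of 14864 were higher without WT2 and 3278 of 14836 without WT3, against 3634 of 14640 with every library. The number of members lower was 2 and lay between 2 and 3 (3 without KO1, when Isg20 passed). With the replicate block for littermate pairs, edgeR gave 36 higher members (Gbp9, Iigp1, Irf7 and Oasl2 were added) and DESeq2 gave 21, while over all genes DESeq2 with the block gave 2193 higher genes against 3634. With library size alone, 1268 genes were lower against 3015. Pathway genes outside the name pattern that were lower numbered 3, and 1 to 3 when a library was left out (1 without WT2 or KO2). The cause of these shifts was not tested. In all 14 other settings, 20 of the 32 higher members were called higher. These settings share libraries with the main fit, and the matching share of all genes is not given here.

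Signs close to 0 turned without passing the threshold. The LFC of Irf3 was -0.0076 in DESeq2 with and without the block, -0.0033 with DESeq2 size factors, and -0.012 and -0.018 without WT2 and KO2. That of Irf4 was -0.025 in DESeq2, -0.012 with the block, -0.017 with DESeq2 size factors, and -0.15, -0.044 and -0.023 without WT1, KO2 and KO3. With library size alone Stat2 was at 0.053 and Ifitm7 at 0.025. When 1 library was left out, LFCs ranged from -0.46 to 0.14 for Stat2, -0.018 to 0.069 for Irf3, -0.15 to 0.19 for Irf4, -0.0025 to 0.26 for Oasl1 and -0.12 to 0.40 for Usp18. Stat2 was at 0.14, 0.11 and 0.12 without WT2, WT3 and KO1, and without WT1 Oasl1 was at -0.0025 and Usp18 at -0.12. At this depth 19 members, with at most 21 counts in any library, could not be tested.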
